A study of Mus musculus with 30 samples.

Results

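The data on 10 genes of the p53 pathway and of cell cycle arrest were taken from RNA sequencing of 3T3-L1 adipocytes, out of 54232 genes in the count table. The genes were chosen by name, and they were Trp53, its inhibitor Mdm2, the cyclin-dependent kinase (CDK) inhibitors Cdkn1a, Cdkn1b and Cdkn2c, the stress and arrest genes Ccng1, Sesn1 and Gadd45a, and the death genes Bbc3 and Bax. All 10 had more than 14 counts over the 30 libraries, as 20139 genes did, and the lowest count in any library was 40 (Bbc3). 3T3-L1 is a mouse preadipocyte line, and all groups were kept for 5 days in adipogenic medium with insulin, dexamethasone, isobutylmethylxanthine and indomethacin. The 30 libraries fell into 6 groups of 5, which were Control cells and cells given the peptide pNaKtide at 0.7 µM, indoxyl sulphate (IS, a uremic toxin) at 100 µM, IS + pNaKtide, oxidized LDL (oxLDL) at 50 µg/mL, or oxLDL + pNaKtide. pNaKtide is a peptide made to block the Src signal that runs through the Na,K-ATPase. The labels give 5 days of treatment, whereas the methods of the study give a shorter one. All libraries came from 1 cell line, and nothing in the labels says that the 5 libraries of a group were separate cultures, so that p-values measure only the spread between these libraries, which may be technical. Between libraries of a group, the chi-square of their counts per degree of freedom (about 1 for counting noise alone) ran from 1.28 to 1.94 in 5 of 60 pairs and from 2.19 to 52.5 in the other 55. The 5 pairs were Control replicates 2 and 4, pNaKtide replicates 1 and 2 and replicates 4 and 5, IS replicates 1 and 2, and IS + pNaKtide replicates 3 and 4. All were above counting noise, which does not show that they came from separate cultures. Each library was counted as 1 sample, and no fit merged these pairs.

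p53, encoded by Trp53, is a transcription factor that is held at a low level by the ubiquitin ligase Mdm2 and accumulates after DNA damage and other stress. It activates genes that stop the cell cycle, repair DNA, lower oxidant load or start apoptosis, and it activates Mdm2 as well, which closes a feedback loop. CDK inhibitors bind CDKs or cyclin-CDK complexes and hold cells in G1, and Cdkn1b and Cdkn2c do so largely without p53. In adipocyte differentiation, preadipocytes pass through cell divisions and then leave the cell cycle, and CDK inhibitors are known for their part in this exit.

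The libraries held 6945498 to 15159877 counts (median 11524210). The adipocyte markers, 10 of 10 detected, summed to 14490 to 19504 CPM (counts scaled to depth) in every library, and the ranges of the 6 groups overlapped. Of the 10, 1 was higher and 3 lower with oxLDL, 1 higher and 3 lower with IS, and 4 higher and 1 lower with pNaKtide added to oxLDL. The preadipocyte markers, 5 of 5 detected, summed to 249 to 407 CPM with overlapping groups, and 1 was lower with oxLDL, 1 lower with IS, and 2 higher and 1 lower with pNaKtide added to oxLDL. Of all genes, 36%, 7.94% and 48.3% were called in these comparisons. The part of either cell state in the results was not tested. Macrophage markers summed to at most 8.11 CPM with Ptprc and Itgam at 0, endothelial markers to at most 0.633 CPM and epithelial markers to at most 8.01 CPM. The first principal component over 12580 genes held 64.4% of the variance, and it set 4 libraries apart from their groups. Control replicate 1 was at -25.8, against 6.47 to 29.9 in the rest of its group, and IS replicate 4 was at 28.2, against -36.7 to -23.2 in the rest of its group. oxLDL + pNaKtide replicate 4, the library with the lowest total count, was at 67.5, against 14.5 to 33.2. pNaKtide replicate 3 was at -5.36, against 15.9 to 36.6. The libraries also differed in how the level of a gene depended on its GC content. This GC slope, in log2 units per 10% of GC, ran from -0.20 to 0.33 in Control, from -0.41 to -0.13 with oxLDL and from 0.10 to 0.65 with oxLDL + pNaKtide.

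Mdm2 was the most abundant of the 10 genes per length. Its mean over the 30 libraries was 235 FPKM (fragments per kilobase of transcript, scaled to sequencing depth), and by its mean log2 CPM it stood at percentile 99.7 of the genes tested. Cdkn1a followed with 126, Ccng1 with 48.6, Cdkn2c with 37.5 and Bax with 29.1 FPKM. Trp53 had 14.1 and Sesn1 11.2 FPKM, and Gadd45a had 7.47. The least abundant were Cdkn1b with 4.99 and Bbc3 with 3.69 FPKM. Expression per length thus spanned a wide range, with the p53 inhibitor and p21 genes at the top and the CDK inhibitor p27 and PUMA genes at the bottom. The other values per gene are CPM normalized by edgeR's TMM method, which may be compared between groups but not between genes.

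**Figure D1:**
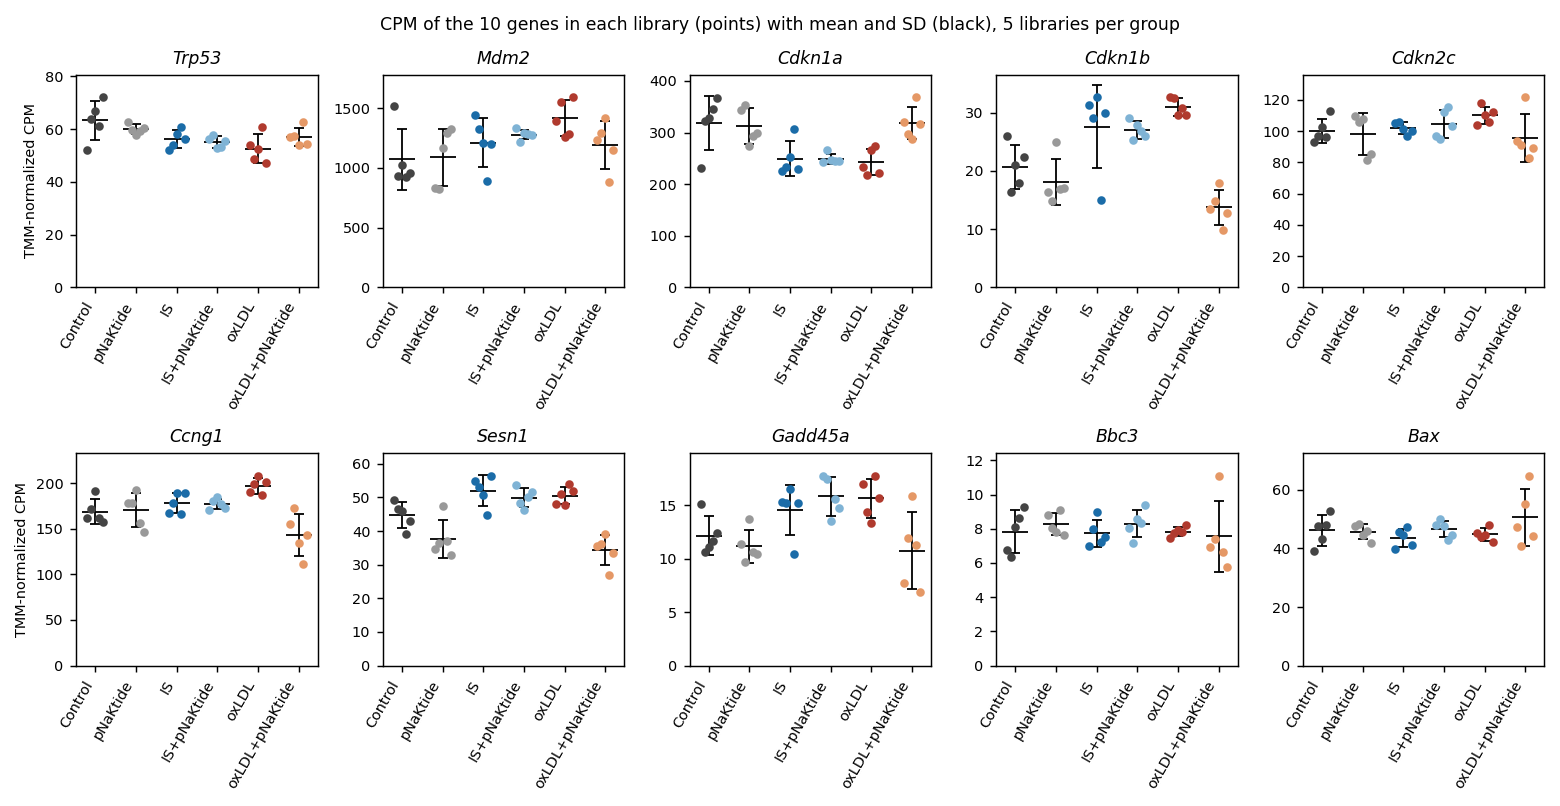
TMM-normalized CPM (y axis, from 0) of the 10 genes in every library (points) of the 6 groups (x axis), with the mean and SD of 5 libraries in black. The oxLDL + pNaKtide libraries lie below all oxLDL libraries for Cdkn1b, Ccng1 and Sesn1 and above all of them for Cdkn1a, and single libraries of Control (Mdm2, Cdkn1a) and IS (Cdkn1b, Gadd45a) stand away from the rest.

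Stretches upstream of the start sites of Cdkn1a, Mdm2, Ccng1, Bax and Cdkn1b are shown, since 4 of these genes hold a p53 half-site near a start and Cdkn1b does not. The sequences are from RefSeq on GRCm38.p6, read 5′ to 3′ on the strand of the gene, and each ends before the annotated first base of the gene. Capitals mark exact matches to the p53 half-site, the 10-letter motif of which p53 binds a pair.
Cdkn1a, upstream start (chr17:29090729-29090975, plus strand): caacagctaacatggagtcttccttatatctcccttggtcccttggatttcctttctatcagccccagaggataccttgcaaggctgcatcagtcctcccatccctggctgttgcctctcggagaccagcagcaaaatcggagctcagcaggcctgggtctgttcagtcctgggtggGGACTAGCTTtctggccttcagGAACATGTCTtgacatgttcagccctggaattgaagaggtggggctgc
Mdm2 (chr10:117710759-117711008, minus strand): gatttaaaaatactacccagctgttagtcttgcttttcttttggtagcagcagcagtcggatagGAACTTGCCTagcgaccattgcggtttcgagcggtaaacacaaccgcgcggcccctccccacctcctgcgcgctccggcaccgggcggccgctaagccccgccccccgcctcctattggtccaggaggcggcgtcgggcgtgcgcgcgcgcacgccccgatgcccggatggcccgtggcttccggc
Ccng1 (chr11:40755312-40755536, minus strand): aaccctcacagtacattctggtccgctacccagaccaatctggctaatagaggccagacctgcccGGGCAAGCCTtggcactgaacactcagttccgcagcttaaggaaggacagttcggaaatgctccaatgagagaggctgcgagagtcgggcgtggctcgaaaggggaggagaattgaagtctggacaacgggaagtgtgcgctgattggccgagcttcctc
Bax (chr7:45466899-45467148, minus strand): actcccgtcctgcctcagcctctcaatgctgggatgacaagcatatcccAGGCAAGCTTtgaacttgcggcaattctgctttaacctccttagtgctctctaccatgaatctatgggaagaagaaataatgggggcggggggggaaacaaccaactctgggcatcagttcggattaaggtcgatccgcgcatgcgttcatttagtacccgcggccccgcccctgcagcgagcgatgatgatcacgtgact
Cdkn1b (chr6:134920151-134920400, plus strand): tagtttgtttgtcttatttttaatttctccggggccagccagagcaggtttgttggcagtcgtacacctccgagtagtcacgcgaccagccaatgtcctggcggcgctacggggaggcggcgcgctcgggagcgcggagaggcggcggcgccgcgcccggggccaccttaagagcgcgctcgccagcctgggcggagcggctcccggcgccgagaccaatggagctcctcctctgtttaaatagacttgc

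All 10 genes were matched to RefSeq start sites, with 15 windows of 300 bases (250 before and 50 after a start). The half-site, which reads the same on both strands, was found in 7 of the 15 windows and in 7 of the 10 genes, where 8.36% of 32851 windows and 9.55% of 27025 genes held it. Only exact matches were searched. Cdkn1a held 2, GGACTAGCTT at -73 to -64 and GAACATGTCT at -51 to -42 of its upstream start. The second of these ended 2832 bases before the other start of Cdkn1a, whose window had none. It is directly followed by tgacatgttc, which departs from the motif in its first letter only and was not counted. Mdm2 had GAACTTGCCT at -186, Ccng1 GGGCAAGCCT at -185 and Bax AGGCAAGCTT at -201. Trp53 itself had GGACTTGCCC at -75, Gadd45a GGGCTAGCCC at -40 and Sesn1 AAGCTTGTTT at -173 of its second start. No window of Cdkn1b, Cdkn2c or Bbc3 matched, and no window held a pair of exact half-sites without a spacer, which 0.0111% of all genes do. GGGCGG, searched on both strands, was present for 8 of the 10 genes (38.2% of all genes), CCAAT for 8 (41.1%) and TATAAA for 1 (15.7%), with no regard to overlap between motifs. These matches describe letters and not binding.

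The 6 groups were fitted together with edgeR's quasi-likelihood test, and a gene was called different at an adjusted p (Benjamini-Hochberg over 20139 genes) under 0.1. With oxLDL, 6 of the 10 genes differed from Control, 4 of them higher (Mdm2, Cdkn1b, Ccng1, Gadd45a) and 2 lower (Trp53, Cdkn1a). Of all genes tested, 36% were called in this comparison, 18.1% higher and 18% lower. Adding pNaKtide to oxLDL gave 6 calls against oxLDL, with Cdkn1a higher and Cdkn1b, Cdkn2c, Ccng1, Sesn1 and Gadd45a lower, where 48.3% of all genes were called, 22.1% higher and 26.1% lower. The median log2 fold change of the 10 genes was 0.15 with oxLDL (0.04 over all genes) and -0.22 with pNaKtide added to oxLDL (-0.09 over all genes). Both comparisons use the same oxLDL libraries. In bulk RNA, fewer cells of a type and less RNA per cell cannot be told apart.

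With edgeR, IS changed 1 of the 10 genes against Control, Cdkn1a, which was lower, where 7.94% of all genes were called and 3.49% were lower. DESeq2 called Cdkn1b as well, as higher. Between oxLDL and IS directly, edgeR called none of the 10, with adjusted p from 0.856 to 0.98 (0.0149% of all genes called). pNaKtide alone changed none against Control with edgeR or DESeq2, where 0.00497% of all genes were called, and 1 of the 10 had an unadjusted p under 0.05 (6.12% of all genes). IS + pNaKtide differed from IS in 0 of the 10 genes with edgeR, with DESeq2 and at an unadjusted p under 0.05 (2.8% of all genes), and in 0% of all genes with edgeR. IS + pNaKtide differed from Control in none (0.358% of all genes), with 4 genes at an unadjusted p under 0.05 (20% of all genes) and 1, Cdkn1a, called by DESeq2. oxLDL + pNaKtide differed from Control in 2, both lower (Cdkn1b, Sesn1), where 5.2% of all genes were called and 3.16% were lower. The effect of pNaKtide in oxLDL-treated cells differed from its effect in Control cells (interaction) for 3 genes, Cdkn1b, Ccng1 and Cdkn1a (24.6% of all genes). In a fit described further on, with the GC and length trend of each library taken out, it was called for Cdkn1b, Cdkn2c, Bbc3 and Bax (10.8% of all genes), and with library size only for Cdkn1b, Cdkn2c, Ccng1 and Sesn1 (26.2%). The same interaction with IS was called for 0 of the 10 genes and 0% of all genes with edgeR. It was called for 0 of the 10 with DESeq2 and reached an unadjusted p under 0.05 in 0 of them (3.07% of all genes).

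**Figure D2:**
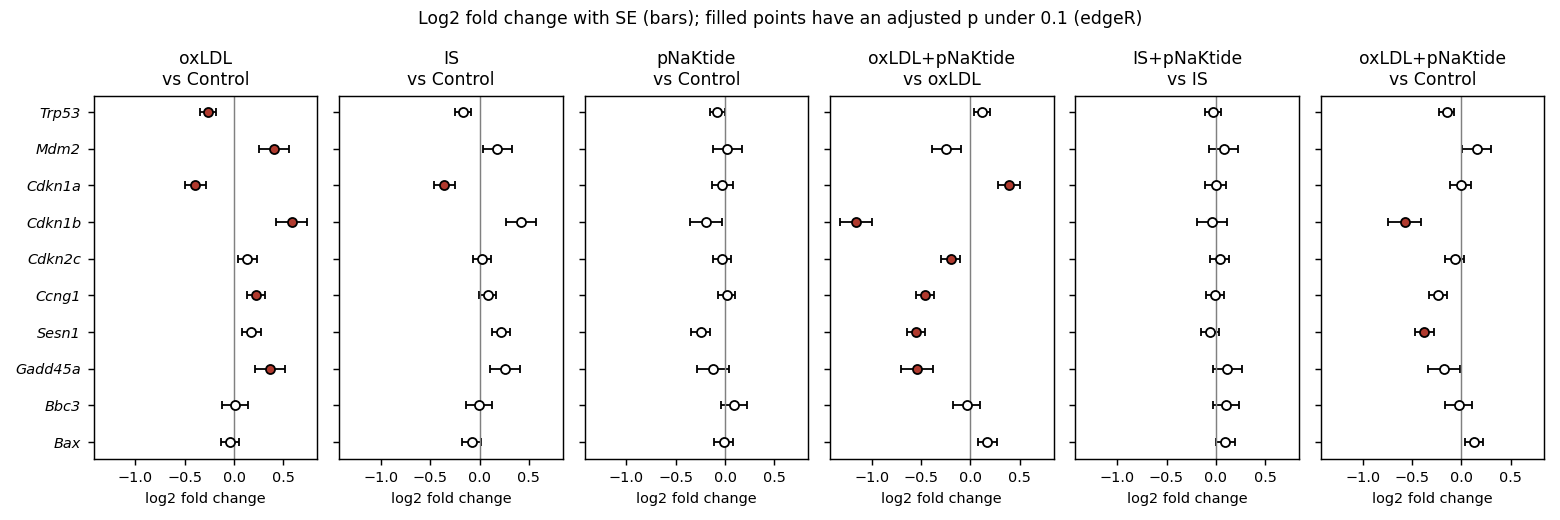
Log2 fold change (x axis) with its SE (bars) of the 10 genes in 6 comparisons, and filled points for an adjusted p under 0.1 with edgeR. Points are filled for 6 genes in the panels of oxLDL against Control and of oxLDL + pNaKtide against oxLDL, for Cdkn1a with IS, and for Cdkn1b and Sesn1 with oxLDL + pNaKtide against Control.

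Trp53, the gene of p53 (ENSMUSG00000059552, GRCm38, chr11:69580359-69591873), fell with oxLDL. Control libraries had 52.2, 64.01, 66.9, 61.3 and 72.1 CPM, and oxLDL libraries had 53.9, 48.5, 52.6, 60.9 and 47.3 CPM. The groups overlapped, with 5 of 5 oxLDL libraries below the Control mean and the lowest Control library being replicate 1. The means were 63.3 ± 7.37 and 52.6 ± 5.38 CPM (SD, n = 5), a log2 fold change of -0.27 (edgeR, SE 0.08, adjusted p = 0.016). The call was lost with library size only, at -0.13 (edgeR, SE 0.07, adjusted p = 0.143), and with the GC and length trend out, at -0.09 (edgeR, SE 0.06, adjusted p = 0.344). With oxLDL + pNaKtide the mean was 57.1 ± 3.49 CPM, a log2 fold change against oxLDL of 0.12 (edgeR, SE 0.08, adjusted p = 0.259) that did not pass. pNaKtide alone had 59.996 ± 1.81, IS 56.3 ± 3.45 and IS + pNaKtide 55.1 ± 2.12 CPM. Control was the highest group and oxLDL the lowest.

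Mdm2, the ubiquitin ligase that marks p53 for degradation (ENSMUSG00000020184, chr10:117688875-117710758), rose with oxLDL. Control libraries had 1519.7, 931, 1026, 919 and 955 CPM, of which the first is a library that stands apart. oxLDL libraries had 1388, 1553, 1259.8, 1285 and 1589.5 CPM, all above the other 4 Control libraries. The means were 1070.2 ± 255 and 1415 ± 151 CPM, a log2 fold change of 0.40 (edgeR, SE 0.15, adjusted p = 0.0418), and 0.56 (edgeR, SE 0.12, adjusted p = 0.000424) without Control replicate 1 and IS replicate 4. The call was lost in 5 of 10 fits that each left out 1 library (adjusted p up to 0.124) and with the GC and length trend out, at 0.25 (edgeR, SE 0.11, adjusted p = 0.113). Libraries with oxLDL + pNaKtide had 1228, 1290.3, 1417, 880.4 and 1152 CPM, from below every Control library (replicate 4) to inside the oxLDL range (replicates 2 and 3). Their log2 fold change against oxLDL was -0.25 (edgeR, SE 0.15, adjusted p = 0.192) and did not pass, but was -0.24 (edgeR, SE 0.12, adjusted p = 0.0829) without those 2 libraries. pNaKtide alone had 833, 826, 1166, 1287 and 1321 CPM, with 2 libraries below all Control libraries and the others above 4 of them. IS had 1211 ± 207 and IS + pNaKtide 1278 ± 40.8 CPM.

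Of the CDK inhibitors, Cdkn1a and Cdkn1b moved apart as fitted after TMM. Cdkn1a encodes p21, the inhibitor through which p53 stops cells in G1 (ENSMUSG00000023067, chr17:29090976-29100727). Its level was 231, 322, 329, 346 and 368 CPM in Control libraries and 233, 219, 267, 274 and 222 CPM with oxLDL. The groups overlapped only through Control replicate 1, and the other 4 Control libraries lay above every oxLDL library. Cdkn1a fell with oxLDL to 243 ± 25.8 CPM, against 319 ± 52.4 CPM in Control, a log2 fold change of -0.40 (edgeR, SE 0.11, adjusted p = 0.0111). With oxLDL + pNaKtide the libraries had 321, 296, 288, 368 and 316 CPM, all above every oxLDL library, which was the case in either direction for 28.4% of all genes in this comparison. The mean of 318 ± 31.2 CPM was a log2 fold change of 0.39 (edgeR, SE 0.11, adjusted p = 0.00377) against oxLDL. The interaction was 0.42 (edgeR, SE 0.15, adjusted p = 0.0576) on the log2 scale, and it was lost in 5 of 20 fits with 1 library left out (adjusted p up to 0.12). All of these calls of Cdkn1a were lost with the GC and length trend out, at -0.13 (edgeR, SE 0.06, adjusted p = 0.112) with oxLDL, 0.06 (edgeR, SE 0.06, adjusted p = 0.482) with pNaKtide added and 0.11 (edgeR, SE 0.08, adjusted p = 0.434) for the interaction. pNaKtide alone had 313 ± 33.99 CPM, a log2 fold change against Control of -0.03 (edgeR, SE 0.11, adjusted p = 0.992).

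In the edgeR fit of the 6 groups after TMM, Cdkn1a was also the single gene called with IS. DESeq2 and the fit with the replicate number as a block called Cdkn1b as well. IS libraries had 226, 232, 253, 307 and 229 CPM, of which IS replicate 4 was the highest. The mean was 249 ± 33.8 CPM, a log2 fold change against Control of -0.36 (edgeR, SE 0.11, adjusted p = 0.0742), and -0.54 (edgeR, SE 0.09, adjusted p = 5.05e-05) without Control replicate 1 and IS replicate 4. The call was lost in 8 of 10 fits that each left out 1 library, with an adjusted p of up to 0.221. It was kept without Control replicate 1 or IS replicate 4, and over the 10 fits the log2 fold change ran from -0.45 to -0.30. IS + pNaKtide had 249 ± 9.51 CPM with a range of 243 to 266 CPM. In the order of group means, Control, oxLDL + pNaKtide and pNaKtide lay above IS, IS + pNaKtide and oxLDL. Over the 10 genes, 50 pairs of neighbours in this order were compared, and the step of Cdkn1a from pNaKtide to IS (0.33 on the log2 scale, edgeR adjusted p = 0.0351) was the single one past the threshold (27.5% of all genes between those groups).

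Cdkn1b encodes p27, which binds cyclin E-CDK2 and cyclin A-CDK2 in quiescent cells (ENSMUSG00000003031, chr6:134920401-134925513), and as fitted after TMM it had the largest fold changes of the 10 genes with oxLDL and with pNaKtide added to oxLDL. Control libraries had 25.9, 16.4, 20.9, 17.9 and 22.3 CPM. oxLDL libraries had 32.6, 32.5, 29.5, 30.8 and 29.5 CPM, all above every Control library, and Cdkn1b was the only one of the 10 genes whose groups did not overlap here (8.35% of all genes). The means of 20.7 ± 3.76 and 30.996 ± 1.53 CPM gave a log2 fold change of 0.58 (edgeR, SE 0.16, adjusted p = 0.0108). With oxLDL + pNaKtide the libraries had 13.4, 14.9, 17.9, 9.77 and 12.7 CPM, all below every oxLDL library and 4 of them below every Control library. The mean of 13.7 ± 3.00 CPM was the lowest of the 6 groups. Its log2 fold change was -1.16 (edgeR, SE 0.16, adjusted p = 1.03e-05) against oxLDL and -0.57 (edgeR, SE 0.16, adjusted p = 0.0483) against Control. The interaction of oxLDL and pNaKtide was -0.97 (edgeR, SE 0.23, adjusted p = 0.0204) on the log2 scale. With the GC and length trend out, given further on, the changes with oxLDL and with pNaKtide added and the interaction were smaller, and each was still called. The call against Control was lost without any 1 of Control replicates 1 and 5 and oxLDL + pNaKtide replicates 1, 4 and 5, with adjusted p between 0.103 and 0.187.

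With IS, 4 of 5 libraries of Cdkn1b lay above every Control library and replicate 4 below all of them, at 31.3, 28.98, 32.6, 15.03 and 29.99 CPM. The log2 fold change against Control was 0.42 (edgeR, SE 0.16, adjusted p = 0.109), and 0.67 (edgeR, SE 0.13, adjusted p = 0.000148) without Control replicate 1 and IS replicate 4. With all libraries, Cdkn1b was called higher by DESeq2, with library size only (12.6% of all genes) and with the replicate number as a block (17%). It was not called with the GC and length trend out. IS + pNaKtide had 26.99 ± 1.54 CPM, and pNaKtide alone 18.1 ± 3.97 CPM with replicate 3 as its highest library.

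Cdkn2c, which encodes the CDK4 and CDK6 inhibitor p18 (ENSMUSG00000028551, chr4:109660876-109667189), had group means that ran from 95.7 ± 15.1 CPM with oxLDL + pNaKtide to 110.1 ± 5.69 CPM with oxLDL. The libraries with oxLDL had 104, 118, 111, 106 and 112 CPM, and those with oxLDL + pNaKtide 93.9, 90.96, 122, 82.6 and 89.1 CPM. Thus 4 of 5 lay below and replicate 3 above the oxLDL libraries, with a log2 fold change of -0.20 (edgeR, SE 0.09, adjusted p = 0.0856), a call that 7 of 10 fits with 1 library left out did not make (adjusted p up to 0.274) and that DESeq2 did not make either, at -0.17 (DESeq2, SE 0.09, adjusted p = 0.123). Against Control (100.4 ± 7.75 CPM), the log2 fold change with oxLDL was 0.13 (edgeR, SE 0.09, adjusted p = 0.301) and did not pass. Both comparisons were called with the GC and length trend out, at 0.43 (edgeR, SE 0.13, adjusted p = 0.0321) with oxLDL and -0.59 (edgeR, SE 0.13, adjusted p = 0.000903) with pNaKtide added. pNaKtide alone had 98.1 ± 13.4, IS 102 ± 3.76 and IS + pNaKtide 105 ± 9.11 CPM.

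The other CDK inhibitors of a list written from general knowledge, 4 in all, were Cdkn1c, Cdkn2a, Cdkn2b and Cdkn2d. Cdkn1c had 7 counts over the 30 libraries and was not tested. With oxLDL, with IS and with pNaKtide added to oxLDL, 0 of the other 3 passed with edgeR or DESeq2, and 0 had an unadjusted p under 0.05, where edgeR called 36%, 7.94% and 48.3% of all genes. With the GC and length trend of each library taken out, all 3 were higher with oxLDL (20% of all genes called) and lower with pNaKtide added (37.4%). Cdkn2a, which encodes p16 and Arf, had 134 ± 23.1 CPM in Control and 118 ± 9.18 CPM with oxLDL. Cdkn2b had 31.8 ± 4.02 and 30.2 ± 3.18 CPM, and Cdkn2d 9.83 ± 0.765 and 10.1 ± 0.822 CPM.

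Of the arrest and stress genes, Ccng1, Sesn1 and Gadd45a all fell when pNaKtide was added to oxLDL. With the GC and length trend of each library taken out, Ccng1 did not, at a log2 fold change of 0.10 (edgeR, SE 0.09, adjusted p = 0.45), its change with oxLDL turned to -0.22 (edgeR, SE 0.09, adjusted p = 0.102) and its interaction was 0.06 (edgeR, SE 0.13, adjusted p = 0.839). Ccng1 encodes cyclin G1, which recruits a phosphatase to Mdm2 (ENSMUSG00000020326, chr11:40748552-40755311). Control libraries had 161, 171, 191, 162 and 158 CPM and oxLDL libraries 191, 199, 208, 186 and 201 CPM. With oxLDL, 3 libraries lay above every Control library, and the mean was 197 ± 8.66 against 169 ± 13.5 CPM in Control, a log2 fold change of 0.22 (edgeR, SE 0.09, adjusted p = 0.061). This call was lost in 5 of 10 fits with 1 library left out (adjusted p up to 0.139). Libraries with oxLDL + pNaKtide had 155, 173, 134, 112 and 143 CPM, all below every oxLDL library. The mean was 143 ± 22.9 CPM, a log2 fold change of -0.46 (edgeR, SE 0.09, adjusted p = 0.000192) against oxLDL, and the interaction was -0.47 (edgeR, SE 0.13, adjusted p = 0.0256) on the log2 scale. pNaKtide alone had 170.4 ± 18.6, IS 178 ± 11.3 and IS + pNaKtide 177 ± 5.74 CPM.

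Sesn1 encodes sestrin 1, a stress-induced inhibitor of mTORC1 (ENSMUSG00000038332, chr10:41809935-41908424). Control libraries had 49.2, 46.6, 46.03, 39.04 and 42.9 CPM, oxLDL libraries 48.2, 51.1, 47.8, 53.9 and 51.8 CPM and oxLDL + pNaKtide libraries 35.7, 36.3, 39.2, 26.98 and 33.6 CPM. The last lay below every oxLDL library, and 4 of them below every Control library. The log2 fold change was -0.55 (edgeR, SE 0.10, adjusted p = 5.25e-05) against oxLDL. It was -0.38 (edgeR, SE 0.10, adjusted p = 0.0257) against Control, where leaving out oxLDL + pNaKtide replicate 4 gave an adjusted p of 0.126. oxLDL against Control gave 0.17 (edgeR, SE 0.09, adjusted p = 0.167), which did not pass, and pNaKtide alone -0.25 (edgeR, SE 0.10, adjusted p = 0.752). Sesn1 was the gene with an unadjusted p under 0.05 for pNaKtide alone, with 37.7 ± 5.67 CPM. IS had 52.1 ± 4.57 and IS + pNaKtide 49.95 ± 2.89 CPM.

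Gadd45a encodes a stress protein that binds p21 and PCNA (ENSMUSG00000036390, chr6:67035096-67037457). Control libraries had 15.1, 10.6, 11.1, 11.6 and 12.4 CPM and oxLDL libraries 16.9, 14.4, 13.3, 17.7 and 15.7 CPM, with 3 of the latter above every Control library. The log2 fold change was 0.36 (edgeR, SE 0.16, adjusted p = 0.0781), a call that 7 of 10 fits with 1 library left out did not make (adjusted p up to 0.182). Libraries with oxLDL + pNaKtide had 7.76, 11.9, 15.8, 11.3 and 6.85 CPM and varied most of all groups, with replicate 3 inside the oxLDL range and the others below it. Their log2 fold change against oxLDL was -0.54 (edgeR, SE 0.16, adjusted p = 0.00662). IS had 15.3, 15.15, 16.5, 10.4 and 15.18 CPM, with replicate 4 below every Control library and the others above them. IS + pNaKtide had 15.8 ± 1.79 CPM and pNaKtide alone 11.2 ± 1.53 CPM. Exons of E230016M11Rik on the opposite strand cover 19.1% of those of Gadd45a, and the strand setting of the counting is not given in the sources used here, so that part of these counts may belong to that gene. The same holds for 7.68% of the exon bases of Cdkn1a.

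A list of 6 relatives, the sestrins Sesn2 and Sesn3, Gadd45b, Gadd45g and the cyclins Ccng2 and Ccni, had 3 genes higher and 1 lower with oxLDL, and 1 higher and 4 lower with pNaKtide added to oxLDL, where 36% and 48.3% of all genes were called. With the GC and length trend out, these counts were 2 and 1, and 1 and 4 (20% and 37.4% of all genes). Gadd45g had 26.5 ± 7.18 CPM in Control and 45.6 ± 3.84 CPM with oxLDL, a log2 fold change of 0.78 (edgeR adjusted p = 0.021). Ccng2 rose by 0.37 (edgeR adjusted p = 0.0418) on the log2 scale with oxLDL, and it changed by -0.65 (edgeR adjusted p = 0.000373) with pNaKtide added. Sesn3 had 138 ± 15.6 CPM with oxLDL and 92.9 ± 21.1 CPM with oxLDL + pNaKtide, a log2 fold change of -0.57 (edgeR adjusted p = 0.00403). Ccni moved the other way, by -0.33 (edgeR adjusted p = 0.0365) with oxLDL and 0.60 (edgeR adjusted p = 0.000147) with pNaKtide added. With IS, Gadd45b (0.67, edgeR adjusted p = 0.0817) and Gadd45g (0.76, edgeR adjusted p = 0.0851) were higher and Sesn2 lower (-0.31, edgeR adjusted p = 0.0686) on the log2 scale (7.94% of all genes called). With the trend out, 1 of the 6 was higher and 0 lower with IS, where 4.35% of all genes were called.

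Neither death gene passed in the 7 comparisons or 2 interactions with edgeR after TMM, and neither reached an unadjusted p under 0.05 there. DESeq2 called Bax higher with pNaKtide added to oxLDL (log2 fold change 0.20, adjusted p = 0.0896). The fit with the GC and length trend out, given further on, called both Bbc3 and Bax. They were higher with oxLDL (20% of all genes called), lower with pNaKtide added (37.4%) and lower in the interaction (10.8%). Bbc3, which encodes the BH3-only protein PUMA (ENSMUSG00000002083, chr7:16308393-16318205), had group means from 7.56 ± 2.07 CPM with oxLDL + pNaKtide to 8.30 ± 0.803 CPM with IS + pNaKtide. oxLDL libraries had 7.48, 7.76, 7.90, 7.82 and 8.22 CPM, inside the Control range of 6.32 to 9.27 CPM, and the log2 fold change was 0.01 (edgeR, SE 0.13, adjusted p = 0.966). Bax, the pore-forming protein of mitochondrial apoptosis (ENSMUSG00000003873, chr7:45461697-45466898), had 39.1, 47.6, 43.2, 48.01 and 52.96 CPM in Control libraries, 45.2, 44.04, 44.7, 47.9 and 42.1 CPM with oxLDL and 47.5, 40.9, 55.3, 64.9 and 44.3 CPM with oxLDL + pNaKtide. The last group overlapped both others, with replicates 3 and 4 above them, and its log2 fold change against oxLDL was 0.17 (edgeR, SE 0.10, adjusted p = 0.157). Exons of Gm45808 on the same strand cover 12.2% of those of Bax, so that its counts are uncertain to that extent. Bbc3 had 7.82 ± 1.26 CPM in Control, 8.28 ± 0.654 with pNaKtide and 7.74 ± 0.787 with IS. Bax had 45.7 ± 2.62 CPM with pNaKtide, 43.7 ± 3.05 with IS and 46.7 ± 2.90 with IS + pNaKtide.

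Their relatives of the BCL2 family, 15 listed and 12 tested, had 4 genes higher and 4 lower with oxLDL, and 3 higher and 7 lower with pNaKtide added to oxLDL (36% and 48.3% of all genes). With the trend out, 2 were higher and 2 lower with oxLDL, and 2 higher and 4 lower with pNaKtide added (20% and 37.4% of all genes). Bak1, the partner of Bax in pore formation, had 104 ± 20.4 CPM in Control, 69.6 ± 11.8 CPM with oxLDL and 105 ± 18.4 CPM with oxLDL + pNaKtide, with log2 fold changes of -0.57 (edgeR adjusted p = 0.00915) and 0.60 (edgeR adjusted p = 0.00134). The survival gene Bcl2l2 moved by 0.52 (edgeR adjusted p = 0.0136) with oxLDL and -0.65 (edgeR adjusted p = 0.000819) with pNaKtide added, and Bcl2l1, another survival gene, by -0.32 (edgeR adjusted p = 0.0127) with oxLDL. The BH3-only gene Bmf fell by 0.70 on the log2 scale (edgeR adjusted p = 9.31e-05) with pNaKtide added to oxLDL, and Bad rose by 0.55 (edgeR adjusted p = 0.00548). Bnip3l, a mitophagy receptor, rose by 0.39 (edgeR adjusted p = 0.014) with oxLDL. With IS, Bcl2l2 was higher (0.49, edgeR adjusted p = 0.0762), and Bak1 (-0.43, edgeR adjusted p = 0.0902) and Bcl2l1 (-0.29, edgeR adjusted p = 0.0817) were lower on the log2 scale (7.94% of all genes called). The fit with the trend out called 1 of the 12 higher and 0 lower with IS (4.35% of all genes), so that both lower calls were lost.

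Levels of most of the 10 genes ran with the GC slope of the library. Over the 30 libraries, Spearman's rho between log2 CPM and the slope was 0.91 for Cdkn1a, 0.76 for Trp53 and 0.52 for Bax. It was -0.89 for Cdkn1b, -0.79 for Sesn1, -0.73 for Mdm2, -0.69 for Gadd45a, -0.66 for Ccng1, -0.46 for Cdkn2c and -0.05 for Bbc3. The slope was -0.20 in Control replicate 1 and 0.27 in IS replicate 4. These are descriptions over libraries that share groups, depth and this slope.

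**Figure D3:**
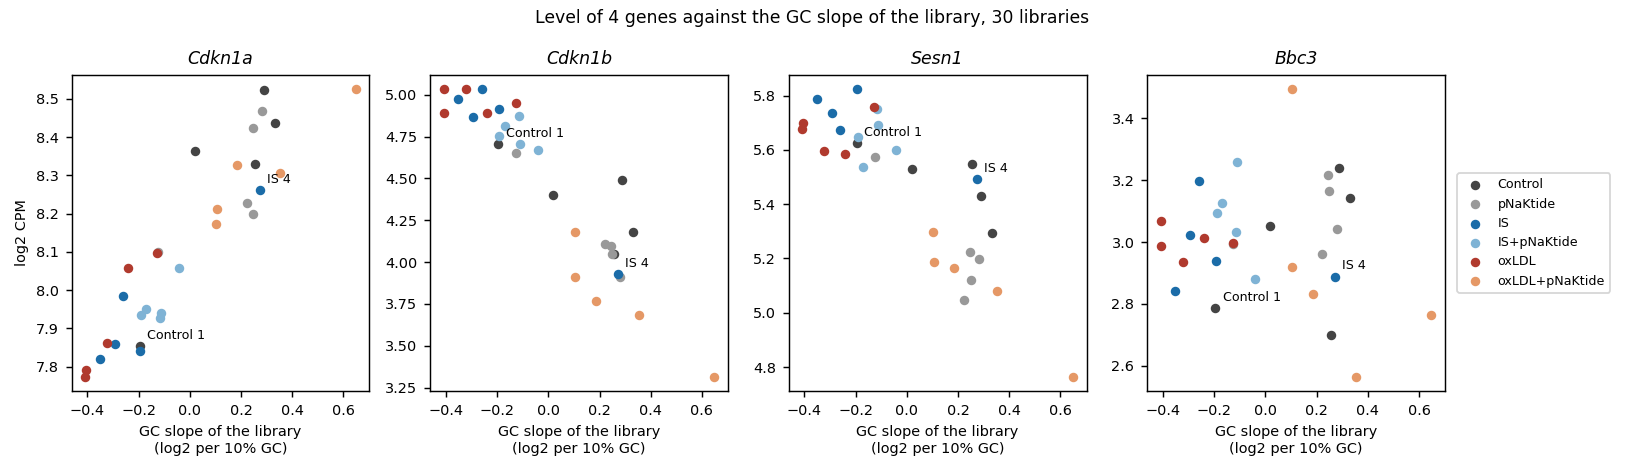
Log2 CPM (y axis) of Cdkn1a, Cdkn1b, Sesn1 and Bbc3 against the GC slope of the library (x axis, log2 units per 10% GC) in 30 libraries, coloured by group. Cdkn1a rises along the slope (rho 0.91), Cdkn1b and Sesn1 fall (-0.89 and -0.79) and Bbc3 does neither (-0.05), with Control replicate 1 and IS replicate 4 marked.

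The fit was therefore repeated with the trend of each library over GC content and gene length taken out, which called 20% of all genes with oxLDL and 37.4% with pNaKtide added to oxLDL. With oxLDL, 5 of the 10 genes were then higher (Cdkn1b, Cdkn2c, Gadd45a, Bbc3, Bax) and none lower. With pNaKtide added, 6 were lower (Cdkn1b, Cdkn2c, Sesn1, Gadd45a, Bbc3, Bax) and none higher. Cdkn1b kept its direction and call at 0.27 (edgeR, SE 0.10, adjusted p = 0.0669) with oxLDL and -0.74 (edgeR, SE 0.10, adjusted p = 3.85e-06) with pNaKtide added. Sesn1 changed little, at -0.56 (edgeR, SE 0.09, adjusted p = 2.12e-05) with pNaKtide added, and Gadd45a had 0.47 (edgeR, SE 0.17, adjusted p = 0.059) and -0.71 (edgeR, SE 0.17, adjusted p = 0.0019) in the same order. The calls of Cdkn1a in both comparisons were lost, while that with IS stayed at -0.18 (edgeR, SE 0.06, adjusted p = 0.0829).

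For 2 genes with a call in either fit, those with the lowest and the second highest GC content of the 10, the direction turned in both comparisons. Ccng1 (40.8% GC in its longest transcript) went to -0.22 (edgeR, SE 0.09, adjusted p = 0.102) with oxLDL and 0.10 (edgeR, SE 0.09, adjusted p = 0.45) with pNaKtide added, neither of them past the threshold. Bax (63.5% GC) went to 0.35 (edgeR, SE 0.08, adjusted p = 0.0133) and -0.45 (edgeR, SE 0.08, adjusted p = 0.000111), both past it. Bbc3, the highest at 65.2% GC, reached 0.37 (edgeR, SE 0.15, adjusted p = 0.0986) and -0.55 (edgeR, SE 0.16, adjusted p = 0.00578), and Cdkn2c (58.0% GC) was called in both comparisons as well. The calls of Trp53 and Mdm2 with oxLDL were lost. With pNaKtide added, Trp53 also turned, from 0.12 (edgeR, SE 0.08, adjusted p = 0.259) to -0.07 (edgeR, SE 0.06, adjusted p = 0.395), with a call in neither fit. With oxLDL, the fold changes of Gadd45a, Cdkn2c, Bbc3 and Bax were then larger than that of Cdkn1b. The trend is estimated from the same libraries, and it also takes out changes by treatment that depend on GC content, so that these cannot be told apart.

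**Figure D4:**
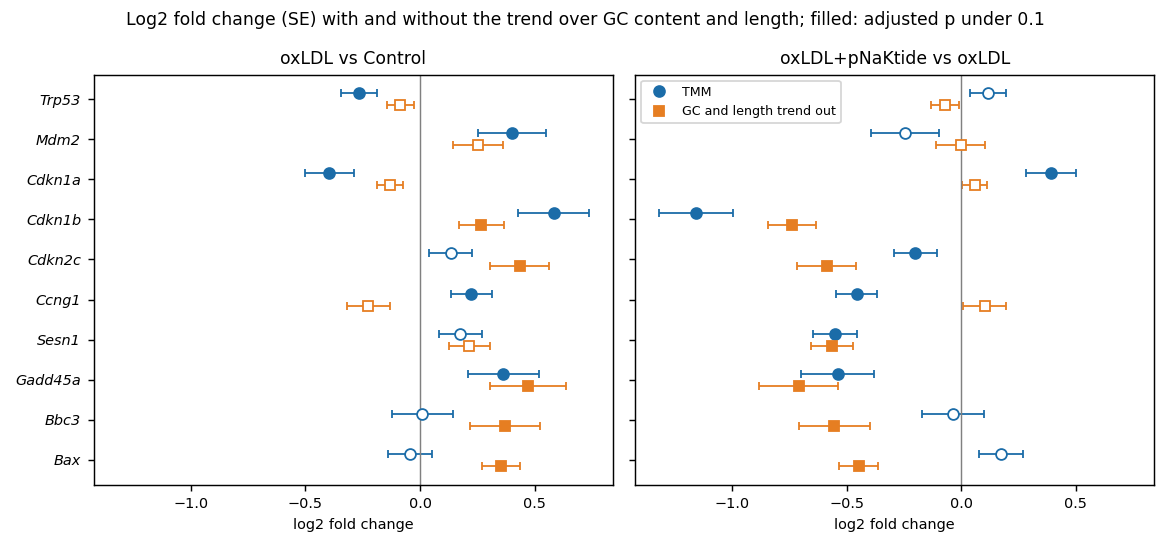
Log2 fold change (x axis) with SE (bars) of the 10 genes with oxLDL against Control (left) and oxLDL + pNaKtide against oxLDL (right), as fitted after TMM (circles) and with the GC and length trend of each library out (squares), filled for an adjusted p under 0.1. Cdkn1b, Sesn1 and Gadd45a keep their side of 0 in both fits, Cdkn1a moves towards 0, Ccng1 and Bax change side, and Trp53 does so on the right.

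Without Control replicate 1 and IS replicate 4, a choice made after seeing the data, more of the 10 genes were called. With oxLDL, 7 passed (48% of all genes), the 6 above and Sesn1. With IS, 6 passed (45.8% of all genes), with Mdm2, Cdkn1b, Sesn1 and Gadd45a higher and Trp53 and Cdkn1a lower. Mdm2 had 0.43 (edgeR, SE 0.13, adjusted p = 0.00784), Gadd45a 0.44 (edgeR, SE 0.15, adjusted p = 0.02) and Trp53 -0.26 (edgeR, SE 0.08, adjusted p = 0.00789) against Control with IS. With pNaKtide added to oxLDL, 7 passed (51.1% of all genes), the 6 above and Mdm2. The interaction of oxLDL and pNaKtide then passed for 7 (40.3% of all genes), while pNaKtide alone and IS + pNaKtide against IS again gave 0 of the 10.

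With no scaling but the library totals, the median over all genes went from 0.04 to 0.17 (log2) with oxLDL, from 0.03 to 0.14 with IS and from -0.09 to -0.30 with pNaKtide added to oxLDL. With oxLDL, it called 6 of the 10 genes higher and 1 (Cdkn1a) lower, where 4963 of all genes were called higher and 2276 lower. Cdkn1a had -0.26 (edgeR, SE 0.08, adjusted p = 0.0179) with oxLDL and 0.16 (edgeR, SE 0.08, adjusted p = 0.0883) with pNaKtide added, against those medians of 0.17 and -0.30. Trp53 had -0.13 (edgeR, SE 0.07, adjusted p = 0.143) with oxLDL and no longer passed. No gene called after TMM changed its direction under this scaling, but the values of Bax in both comparisons, and of Trp53 with pNaKtide added, which had not passed, changed sign.

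Among 46 other p53 targets of a list written from general knowledge, 43 were tested, of which 14 were higher and 4 lower with oxLDL, 41.9% against 36% of all genes. The median log2 fold change was 0.05, against 0.04 for all genes, and with the GC and length trend out 6 were higher and 4 lower (20% of all genes called). Trp53inp1, a p53-induced gene of autophagy, had 45.3 ± 18.04 CPM in Control and 86.3 ± 22.8 CPM with oxLDL, a log2 fold change of 0.93 (edgeR adjusted p = 0.00978), and Ikbip rose by 0.46 (edgeR adjusted p = 0.00893). The Akt inhibitor gene Phlda3 had 198 ± 40.7 and 145 ± 12.7 CPM, a log2 fold change of -0.44 (edgeR adjusted p = 0.0124), and Steap3, a ferrireductase gene, changed by -0.47 (edgeR adjusted p = 0.0093). With IS, 1 was higher (Trp53inp1, 0.74, edgeR adjusted p = 0.0864) and 1 lower (Sesn2), but 14 were higher and 11 lower without Control replicate 1 and IS replicate 4. The share of all genes called with IS went from 7.94% to 45.8% between these fits. With the trend out, 0 were higher and 1 lower (4.35% of all genes), so that the call of Trp53inp1 was lost.

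With pNaKtide added to oxLDL, 6 of the 43 targets were higher and 24 lower, 69.8% against 48.3% of all genes, with a median log2 fold change of -0.30 against -0.09. With the GC and length trend out, 4 were higher and 25 lower (37.4% of all genes called). Eda2r, which encodes a receptor of the TNF receptor family, had 14.4 ± 2.02 CPM with oxLDL and 6.10 ± 1.37 CPM with oxLDL + pNaKtide, a log2 fold change of -1.23 (edgeR adjusted p = 1.61e-05). Ikbip changed by -0.76 (edgeR adjusted p = 2.06e-05) on the log2 scale. Phlda3 (0.53, edgeR adjusted p = 0.000908) and Steap3 (0.46, edgeR adjusted p = 0.00236) were higher.

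Of 23 regulators of p53, 22 were tested, with 5 higher and 3 lower with oxLDL, and 3 higher and 10 lower with pNaKtide added to oxLDL. These were 36.4% and 59.1% of the 22, against 36% and 48.3% of all genes. The kinase gene Atr had 10.8 ± 4.34 CPM in Control and 17.1 ± 2.22 CPM with oxLDL (0.66 on the log2 scale, edgeR adjusted p = 0.0155), and Cop1, another ubiquitin ligase of p53, rose by 0.37 (edgeR adjusted p = 0.0171). Ppp1r13l, which encodes the p53 inhibitor iASPP, changed by -0.48 (edgeR adjusted p = 0.0198) with oxLDL and by 0.89 (edgeR adjusted p = 3.88e-05) with pNaKtide added. Ppp1r13b, the gene of ASPP1, changed by -0.44 (edgeR adjusted p = 0.0081) with oxLDL and by -0.35 (edgeR adjusted p = 0.0719) with IS. With pNaKtide added to oxLDL, Ing1 (-0.47, edgeR adjusted p = 4.73e-05) and Trp53bp2 (-0.43, edgeR adjusted p = 0.000539) were lower. Rpl11, a ribosomal protein gene with many pseudogenes and so an uncertain count, was higher (0.47, edgeR adjusted p = 0.00807). With the trend out, 1 was higher and 6 lower with oxLDL, and 5 were higher and 8 lower with pNaKtide added (20% and 37.4% of all genes). With IS it called 1 higher and 0 lower (4.35% of all genes), so that the call of Ppp1r13b was lost.

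The 26 genes of the G1 cyclins, their kinases and the RB-E2F proteins were all tested. With oxLDL, 9 were higher and 5 lower, and with pNaKtide added to oxLDL 3 were higher and 14 lower. These were 53.8% and 65.4% of the 26, against 36% and 48.3% of all genes. The pocket protein gene Rb1 had 13.8 ± 4.15 CPM in Control and 21.6 ± 2.39 CPM with oxLDL (0.64 on the log2 scale, edgeR adjusted p = 0.0102), and E2f5 rose by 0.77 (edgeR adjusted p = 0.00999). Ccnd3, the gene of cyclin D3, had 279.8 ± 50.2 CPM in Control, 198 ± 20.5 CPM with oxLDL and 309.7 ± 51.8 CPM with oxLDL + pNaKtide. Its log2 fold changes were -0.50 (edgeR adjusted p = 0.00944) and 0.65 (edgeR adjusted p = 0.000197), and those of its kinase gene Cdk4 -0.24 (edgeR adjusted p = 0.0526) and 0.30 (edgeR adjusted p = 0.00788). With pNaKtide added, Rbl2 changed by -0.57 (edgeR adjusted p = 7.47e-05) and Tfdp1, the gene of an E2F partner, by -0.52 (edgeR adjusted p = 9.09e-05). With IS, 4 were higher and 0 lower (7.94% of all genes called), led by Rbl1 (0.62, edgeR adjusted p = 0.0711) and E2f5 (0.68, edgeR adjusted p = 0.0728). With the trend out, 3 were higher and 2 lower with oxLDL, near the 20% of all genes called, and 2 higher and 8 lower with pNaKtide added (37.4% of all genes). With IS this fit called 1 higher and 0 lower (4.35% of all genes), whereas 12 were higher and 6 lower without Control replicate 1 and IS replicate 4 (45.8% of all genes).

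The markers of proliferating cells, 8 of 8 detected, summed to 202 to 223 CPM in Control, 231 to 271 CPM with oxLDL and 149 to 196 CPM with oxLDL + pNaKtide. These sums are scaled by library totals without TMM, and on that scale the ranges did not overlap. After TMM, the median log2 fold change of the 8 was 0.04 with oxLDL (0.04 over all genes). It was -0.29 with pNaKtide added to oxLDL (-0.09 over all genes). Of the 8, 2 were higher and 2 lower with oxLDL, and 2 higher and 3 lower with pNaKtide added (36% and 48.3% of all genes). With the GC and length trend out these were 0 higher and 1 lower, and 1 higher and 2 lower, where 20% and 37.4% of all genes were called. The part of dividing cells in the results was not tested.

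**Figure D5:**
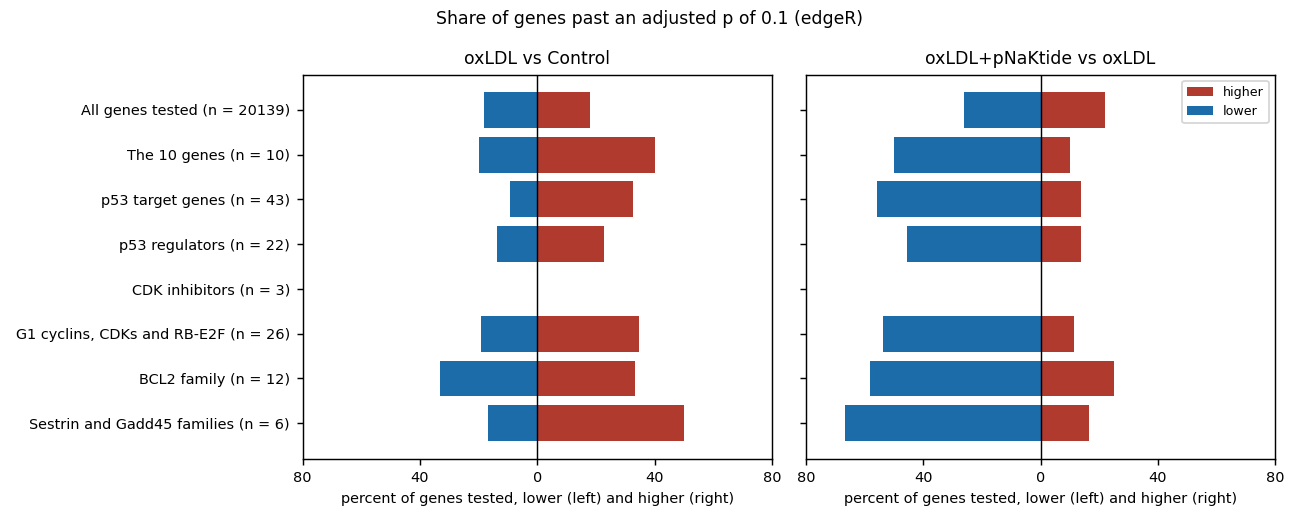
Percent of genes tested (x axis, lower to the left and higher to the right) past an adjusted p of 0.1 with edgeR, for all genes, the 10 genes and the 6 lists, with the number tested in brackets. With pNaKtide added to oxLDL (right), 24 of 43 p53 targets and 14 of 26 G1 genes are lower, against 26.1% of all genes, and no bar is drawn for the other CDK inhibitors because none of the 3 passed.

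Among 12579 other genes whose mean log2 CPM was 1 or more, the one most alike each of the 10 in its ranks over the 30 libraries was found. Spearman's rho was 0.98 for Cdkn1a with Gm17383, 0.95 for Cdkn1b with Ing5, 0.94 for Sesn1 with Slc35f5 and 0.93 for Mdm2 with Stx16. It was 0.89 for Trp53 with Gm8420, 0.88 for Ccng1 with Atp6v1a, 0.88 for Gadd45a with Lrrc8a and 0.87 for Cdkn2c with Scp2. Bax had 0.79 with Mzt2 and Bbc3 0.70 with Hist1h2be, the least like any other gene. None of these 10 most alike genes was itself one of the 10.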

How the data were processed

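RNA of 30 samples labelled as 3T3-L1 cells was sequenced from stranded mRNA libraries (the extraction text names adipose tissue), and groups were taken from the sample labels. Per the submitters' processing notes, the authors used Trimmomatic 0.38, HISAT2 2.1.0 and DESeq2 1.20.0 on GRCm38. The authors deposited raw counts per gene, the signal of DESeq2-normalized counts, which was not tested, and FPKM, used for levels between genes. Per the study's methods, reads per gene were counted with the R package GenomicAlignments, and its strand setting is not given in the sources used here. All columns were mapped to a sample, so that 0 were unused. The members and lists were chosen with earlier results of these data known.

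The 20139 genes whose counts summed to more than 14 entered the test with edgeR 4.0.16 (TMM, robust quasi-likelihood fit of 6 groups, Benjamini-Hochberg over all genes, threshold 0.1) in R 4.3.3, in 7 comparisons, 2 interactions and 15 pairs of groups. No GC content or length correction was made in this fit. Levels are TMM-normalized CPM. Named were the 10 genes, the gene most alike each of them, and at most 2 genes per list and direction with the smallest adjusted p (mean log2 CPM of at least 1), for oxLDL or IS against Control and oxLDL + pNaKtide against oxLDL. The 4 other CDK inhibitors are named as a whole list. Gene positions are from GENCODE M21. Alternatives used DESeq2 1.42.0, limma 3.58.1 on log2(FPKM + 1), offsets for GC content and gene length (mgcv 1.9.3), other scalings, filters and thresholds, the replicate number as a block, and each library left out. On simulated counts of oxLDL against Control (19664 genes, 200 changed), edgeR called 74 genes changed by 1.5-fold, 91 changed by 2-fold and 16 unchanged ones. The simulation drew each gene independently, with no GC slope and no library that stands apart, so that its rates need not hold for these data.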

Additional observations from a re-analysis of the deposited data

Results flagged for a closer look

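Of 60 groups of 5 libraries (10 genes in 6 groups), 6 held a library far from the other 4 by Dixon's test at the 95% level, which chance flags in about 1 of 20 groups. Control replicate 1 had 1520 CPM of Mdm2 (others 919.1 to 1026) and 231.1 CPM of Cdkn1a (others 321.6 to 367.9). IS replicate 4 had 15.03 CPM of Cdkn1b (others 28.98 to 32.61) and 10.43 CPM of Gadd45a (others 15.15 to 16.51). Cdkn1b was at 24.99 CPM in pNaKtide replicate 3 (others 14.9 to 17.07), and Cdkn1a at 266.2 CPM in IS + pNaKtide replicate 2 (others 243.4 to 247.3).

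The change with pNaKtide differed between oxLDL-treated and Control cells for 3 genes by the interaction test of edgeR. It was -0.97 for Cdkn1b (SE 0.23, adjusted p = 0.0204), -0.47 for Ccng1 (SE 0.13, adjusted p = 0.0256) and 0.42 for Cdkn1a (SE 0.15, adjusted p = 0.0576) on the log2 scale. With the GC and length trend out, that of Cdkn1b was -0.59 (edgeR, SE 0.15, adjusted p = 0.0249), that of Ccng1 0.06 (edgeR, SE 0.13, adjusted p = 0.839) and that of Cdkn1a 0.11 (edgeR, SE 0.08, adjusted p = 0.434).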

How the results depend on the processing

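Of 2270 values of single genes under 43 alternatives, 69 lost a call, 88 gained one, and 12, all of Ccng1 or Bax, changed direction with a call in either fit. The other 2101 kept their side of the threshold, and of these 141, called in neither fit, changed sign. The lowest count of the 10 genes was 40 (Bbc3). The number of the 10 genes called with IS against Control (1) was 2 with DESeq2, 3 with library size only, 3 with more than 14 counts in every library, 2 with edgeR's expression filter, 0 with at least 1 count, 0 at a threshold of 0.05, 0 with only the groups compared, and 6 without Control replicate 1 and IS replicate 4. Of all genes, 7.94% were called here, 12.6% with library size only and 45.8% without those libraries. That of IS + pNaKtide against Control (0) was 1 with DESeq2, 1 with more than 14 counts in every library, 1 with the GC and length trend out, 2 with only the groups compared, and 5 without those libraries, beside 0.358% of all genes, 2.32% with the trend out and 32.7% without those libraries. That of oxLDL + pNaKtide against Control (2) was 4 with library size only and 0 with only the groups compared, beside 5.2% of all genes and 9.77% with library size only. The interaction of oxLDL and pNaKtide (3) gave 7 without those libraries, beside 24.6% of all genes and 40.3%. The number of neighbouring groups that differed (1) was 3 with library size only, 5 with the trend out and 3 without those libraries. Where no share of all genes stands beside a setting, its count cannot be read against all genes. The cause of these differences was not tested.

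With the trend out, Ccng1 went to -0.22 with oxLDL, 0.10 with pNaKtide added and 0.0573 in the interaction (log2), and Bax to 0.35, -0.45 and -0.38. With 1 library left out, the number of genes called was 3 to 7 for oxLDL against Control (3 without Control replicate 4 or 5 or oxLDL replicate 5), 0 to 5 for IS against Control (5 without Control replicate 1 or IS replicate 4), 5 to 7 for oxLDL + pNaKtide against oxLDL, 0 to 3 for oxLDL + pNaKtide against Control, 0 to 5 for IS + pNaKtide against Control and 2 to 7 for the interaction with oxLDL. It was 0 to 3 for neighbouring groups and 0 in every such fit for pNaKtide against Control, IS + pNaKtide against IS and the interaction with IS. The shares of all genes called in these fits are not given, so that these counts cannot be read against them.

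The replicate numbers were not taken to pair the samples, since 37 and not all of 75 same-number pairs had a correlation of deviations over 0.1 (-0.66 to 0.79). The median was 0.1 for the same number and -0.034 for different numbers, and 13 of 30 libraries correlated best with their own number. With the number as a block, 6 genes were called with oxLDL against Control, 2 with IS, 6 with oxLDL + pNaKtide against oxLDL, 3 with oxLDL + pNaKtide against Control, 1 with IS + pNaKtide against Control, 4 in the interaction with oxLDL, and 2 neighbouring pairs differed. Of all genes, these fits called 38.8% with oxLDL, 17% with IS, 49.6%, 8.21%, 6.64% and 29.8% in the same order. With the block and the trend out, 2 genes were called for IS + pNaKtide against Control, 5 in the interaction and 6 for neighbouring pairs, with Ccng1 at -0.22, 0.10 and 0.0529 and Bax at 0.36, -0.45 and -0.39. For this last fit the share of all genes called is not given, which leaves its counts without a measure to set them against.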

Other observations

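Across the 30 libraries, Spearman's rho between log2 CPM of the 10 genes was highest for Cdkn1b with Sesn1 (0.86) and for Trp53 with Cdkn1a (0.83). It was lowest for Cdkn1a with Sesn1 (-0.82), Cdkn1a with Cdkn1b (-0.81), Mdm2 with Cdkn1a (-0.79) and Trp53 with Mdm2 (-0.77). These libraries share groups and the GC slope described above, and the values are given as a description.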
